A study of Mus musculus with 2 samples.

Results

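The immediate early and feedback genes described here are 10 genes chosen by name out of the 49315 in the count table. They are the AP-1 subunit genes Fos, Fosb, Jun, Junb and Jund, the early response genes Egr1 and Ier2, and the feedback genes Dusp1, Zfp36 and Btg2. All 10 were present in the table under those symbols. RNA was sequenced from cells labelled as macrophages of mouse dorsal root ganglia, which hold the cell bodies of sensory nerves. The normoxia group was sham-treated, with both chamber valves delivering room air at about 21% oxygen. In the chronic intermittent hypoxia group, oxygen fell from about 21% to 8% and rose back in cycles of 6 min, 10 per hour, for 8 h a day on 14 consecutive days, and both groups were taken about 18 h after the last session. There was 1 library per group. The sources used here do not give the strain, age or sex of the mice, how many stood behind a library, or how macrophages were separated from other cells.

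Immediate early genes are transcribed within minutes of a stimulus without new protein synthesis, through factors already bound at their promoters, such as serum response factor and CREB. Fos and Jun proteins pair through leucine zippers to form AP-1, which binds DNA and switches on later genes. The response limits itself, because several early genes encode inhibitors of kinases, proteins that destabilise AU-rich mRNAs, or inhibitors of growth. In macrophages the group is known for its response to microbial products, phagocytosis and adhesion, and also for its rise when tissue is dissociated into cells.

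Of the 10 genes, 9 were counted in the normoxia library and had 0 counts in the hypoxia library, and Fosb alone showed the opposite pattern. The 9 genes ran from 85 counts (Btg2) to 2218 (Dusp1) in normoxia. Of all 4640 genes counted in normoxia, 3482 (75.0%) had 0 counts in hypoxia, so a 0 there was common. Of all 2050 genes counted in hypoxia, 892 (43.5%) had 0 counts in normoxia, as Fosb did. With 1 library per group there was no test and no replicate to check a difference against, and the 95% intervals below reflect counting error alone.

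The promoters of the 4 genes with most counts in normoxia and of Fosb, the gene counted in hypoxia, are shown because these genes carry the contrast. Each is 300 bases from RefSeq on GRCm38.p6, running from 250 bases before the RefSeq start to 50 after it, read 5′ to 3′ on the strand of the gene. Their positions are Fos chr12:85473640-85473939 (plus strand), Fosb chr7:19309996-19310295 (minus strand), Junb chr8:84978699-84978998 (minus strand), Dusp1 chr17:26508423-26508722 (minus strand) and Zfp36 chr7:28379179-28379478 (minus strand). Capitals mark the core of the cyclic AMP response element (TGACG, on either strand), the TATA element (TATAAA, on the strand of the gene) and the CArG box, which serum response factor binds.
Fos: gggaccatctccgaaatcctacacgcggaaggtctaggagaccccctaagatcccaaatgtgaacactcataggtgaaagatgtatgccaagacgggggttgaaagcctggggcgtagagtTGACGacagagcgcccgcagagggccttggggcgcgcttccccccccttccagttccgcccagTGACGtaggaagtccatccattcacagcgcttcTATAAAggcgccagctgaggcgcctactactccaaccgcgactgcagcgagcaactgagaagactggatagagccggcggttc
Fosb: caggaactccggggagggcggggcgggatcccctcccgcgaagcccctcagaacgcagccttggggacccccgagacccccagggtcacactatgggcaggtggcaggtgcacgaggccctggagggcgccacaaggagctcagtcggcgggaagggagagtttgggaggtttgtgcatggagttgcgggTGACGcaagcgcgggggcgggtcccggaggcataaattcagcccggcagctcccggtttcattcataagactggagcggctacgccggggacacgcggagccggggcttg
Junb: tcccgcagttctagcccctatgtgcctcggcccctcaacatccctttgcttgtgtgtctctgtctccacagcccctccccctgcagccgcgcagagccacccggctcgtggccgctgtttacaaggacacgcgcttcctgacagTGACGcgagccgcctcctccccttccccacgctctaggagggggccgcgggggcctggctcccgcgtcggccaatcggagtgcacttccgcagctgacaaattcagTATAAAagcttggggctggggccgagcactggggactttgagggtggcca
Dusp1: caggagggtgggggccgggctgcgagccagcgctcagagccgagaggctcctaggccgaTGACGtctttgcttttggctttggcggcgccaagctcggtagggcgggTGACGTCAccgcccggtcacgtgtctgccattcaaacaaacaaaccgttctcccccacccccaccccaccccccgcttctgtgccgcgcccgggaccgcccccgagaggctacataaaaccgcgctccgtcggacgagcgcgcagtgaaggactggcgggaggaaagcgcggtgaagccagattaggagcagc
Zfp36: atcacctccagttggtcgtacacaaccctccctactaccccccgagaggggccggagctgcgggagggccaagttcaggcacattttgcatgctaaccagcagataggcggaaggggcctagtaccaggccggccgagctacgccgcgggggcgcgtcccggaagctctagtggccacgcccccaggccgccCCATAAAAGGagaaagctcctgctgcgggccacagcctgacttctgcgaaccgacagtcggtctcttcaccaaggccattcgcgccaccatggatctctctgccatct

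Of the 10 genes, 8 matched a RefSeq promoter, all but Egr1 and Ier2. RefSeq starts need not be those of the GENCODE M21 positions given below. The Jund window, chr8:70697489-70697788, lay wholly before the GENCODE gene, which begins at 70698949, and held none of the motifs below. The windows of Zfp36 and Dusp1 lay inside the GENCODE span of the gene. The core TGACG was found in 5 of the 8 (Fos, Fosb, Junb, Dusp1 and Btg2), against 20.8% of all 32851 promoters of this length, and the full element TGACGTCA, which contains that core on both strands, in Dusp1 and Btg2, against 1.79%. In Fos the core lay 129 and 66 bases before the start and TATAAA 33 bases before it. A CArG box was found in Zfp36 alone, 58 bases before the start, against 1.63% of promoters. TATAAA was found in Fos and Junb, against 8.32%, and in Junb it began at the RefSeq start itself. The GC box GGGCGG, searched on both strands, was found in 6 of the 8, against 35.7%, and the EGR site GCGNGGGCG, which can overlap it, in Fosb, Zfp36 and Btg2, against 5.55%. The pattern TGANTCA was found in none of the 8 windows, against 7.81% of all promoters. With any base at N, this pattern is looser than the AP-1 site, which has C or G there. The median GC content was 64.5% over the 8, against 52.7% over all promoters. A match describes letters in this window only, and Fosb shared the core and the GC box with genes of the opposite pattern.

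Most mRNAs of the group carry the heptamer TATTTAT, a site that Zfp36 protein binds in AU-rich mRNA. In GENCODE M21, taking the transcript with the longest coding part, the 3′ UTR held it in 7 of the 10 genes, against 24.1% of 21658 coding genes, without a match in Junb, Egr1 and Ier2. Dusp1 and Zfp36 held 3 heptamers each and Fos 2. The sites below are 21 bases each, with the heptamer in capitals and T for U, and show that Fosb carries a site just as genes of the opposite pattern do.
Fos: ttcaattTATTTATtaagatg
Jun: ttgtgcaTATTTATaatagcg
Dusp1: tggtcctTATTTATttaacac
Zfp36: acgacttTATTTATtgtatta
Fosb: ccccagcTATTTATccctttc

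Depth differed 15.0-fold between the libraries, with 2171348 counts in normoxia and 145056 in hypoxia. Where a gene had 0 counts, 3 counts served as the upper limit, equal to 1.38 CPM (counts relative to the total of the library) in normoxia and 20.7 CPM in hypoxia. The labels mention no molecular identifiers, so a number of reads per starting molecule was estimated from genes with at least 10 counts in 1 library and 0 in the other, as their median count, which assumes, untested, 1 molecule for most of them. It was 229 in normoxia and 39 in hypoxia, and on that estimate a gene with 3 molecules in the hypoxia library would hold 807 CPM. The hypoxia column carries a code with the initial C and a number that matches neither sample's description, so its group rests on that initial. Positions are from GENCODE M21 on GRCm38, while the sources used here do not give the build of the authors.

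The Fos family differed in which gene was counted. Fos, whose protein pairs with Jun proteins and is the classical early response subunit, lies on chromosome 12 from 85473890 to 85477273 (ENSMUSG00000021250, plus strand, 4 exons). It had 1151 counts in normoxia, or 530.1 CPM with an exact Poisson interval of 499.9 to 561.6, and 0 in hypoxia. Taking that 0 as 3 counts of the hypoxia library, it was at least 25.6-fold lower in hypoxia. Such folds take the counted library at its own value, and the exact interval of the ratio, which adds its counting error, reached 0.0480 for Fos. Over the 9 genes its upper limit ran from 0.0249 (Dusp1) to 0.664 (Btg2). At the share it held in normoxia, 76.9 counts would have stood in the hypoxia library, or 1.97 estimated molecules.

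Fosb, a Fos relative that also pairs with Jun proteins and whose truncated splice form is long-lived in neurons, lies on chromosome 7 from 19302696 to 19310051 (ENSMUSG00000003545, minus strand, 4 exons). It had 0 counts in normoxia and 24 in hypoxia, or 165.5 CPM with an interval of 106.0 to 246.2. On reads its level was 120-fold above that of 3 counts in normoxia, and the interval of the ratio, which adds the counting error of the 24 counts, began at 90.1. On estimated molecules it came to 0.615, less than 1 molecule. Among the 892 genes counted in hypoxia alone, 299 (33.5%) had 24 counts or fewer, so Fosb was not among the abundant ones. With 24 counts it missed the minimum of 50 counts over both libraries that the size rule below requires. Fos and Fosb together held 0.0530% of the normoxia counts (0.0500 to 0.0562) against 0.0165% of the hypoxia counts (0.0106 to 0.0246). The ratio of these shares was 0.312, its interval running from 0.199 to 0.467 on reads and from 0.000911 to 3.86 on estimated molecules, which includes 1.

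All 3 Jun family genes were counted in normoxia and none in hypoxia. Junb, which can restrain other Jun proteins, is a gene on chromosome 8 (ENSMUSG00000052837, 84974484 to 84978718, minus strand). It had 1464 counts in normoxia (674 CPM, 640.1 to 709.7) and 0 in hypoxia, at least 32.6-fold lower. Jund (ENSMUSG00000071076, chromosome 8, 70698949 to 70700616, plus strand), the member that is expressed steadily in most cells, had 860 counts (396 CPM, 370.0 to 423.4) and 0, at least 19.2-fold lower. Jun (ENSMUSG00000052684, chromosome 4, 95049034 to 95052222, minus strand), the main partner of Fos and target of the JNK kinases, had 747 counts (344.0 CPM, 319.8 to 369.6) and 0, at least 16.6-fold lower. The 0 counts in hypoxia thus took in Jund, the steadily expressed member, as well as the inducible ones. Summed, the Jun family held 0.141% of the normoxia library (0.136 to 0.147) and no count in hypoxia, where the interval reached 0.00254%. At an equal share 205 counts or 5.26 estimated molecules would have stood in hypoxia, and the upper limit of the ratio was 0.0180 on reads and 0.807 on estimated molecules.

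The early response genes outside AP-1 were less abundant. Egr1, a zinc finger factor that responds to growth factors and integrin signals (ENSMUSG00000038418, chromosome 18, 34859823 to 34864984, plus strand, 2 exons), had 513 counts in normoxia (236 CPM, 216.3 to 257.6) and 0 in hypoxia, at least 11.4-fold lower. Ier2, a small nuclear protein of the early response (ENSMUSG00000053560, chromosome 8, 84661331 to 84662852, minus strand), had 317 counts (146 CPM, 130.4 to 163.0) and 0, at least 7.06-fold lower. Both would have held less than 1 estimated molecule in hypoxia at an equal share, 0.879 for Egr1 and 0.543 for Ier2, as would Btg2 below (0.146). On estimated molecules the upper limit of the ratio was above 1 for each of the 9 genes, 1.18 for Dusp1 being the nearest to 1.

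The feedback genes included the most abundant of the group. Dusp1, a phosphatase that switches off p38 and JNK kinases (ENSMUSG00000024190, chromosome 17, 26505590 to 26562128, minus strand), had 2218 counts in normoxia (1022 CPM, 979.4 to 1065) and 0 in hypoxia, at least 49.4-fold lower. Zfp36, also called tristetraprolin, a protein that brings AU-rich mRNAs such as Tnf to decay (ENSMUSG00000044786, chromosome 7, 28376784 to 28380253, minus strand), had 1692 counts (779 CPM, 742.5 to 817.3) and 0, at least 37.7-fold lower. Btg2, an inhibitor of cell growth that binds the deadenylase complex (ENSMUSG00000020423, chromosome 1, 134075170 to 134079120, minus strand), had 85 counts (39.1 CPM, 31.3 to 48.4) and 0. Its level in normoxia was 1.89-fold above that of 3 counts in hypoxia, and the interval of its ratio reached 0.664, so its reads allow a change of less than 2-fold. Dusp1 alone exceeded, in normoxia, the 807 CPM that 3 estimated molecules would give in hypoxia. Summed, the 3 feedback genes held 0.184% of the normoxia library (0.178 to 0.190) and no count in hypoxia, with an upper limit of the ratio of 0.0138 on reads and 0.600 on estimated molecules.

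**Figure D1:**
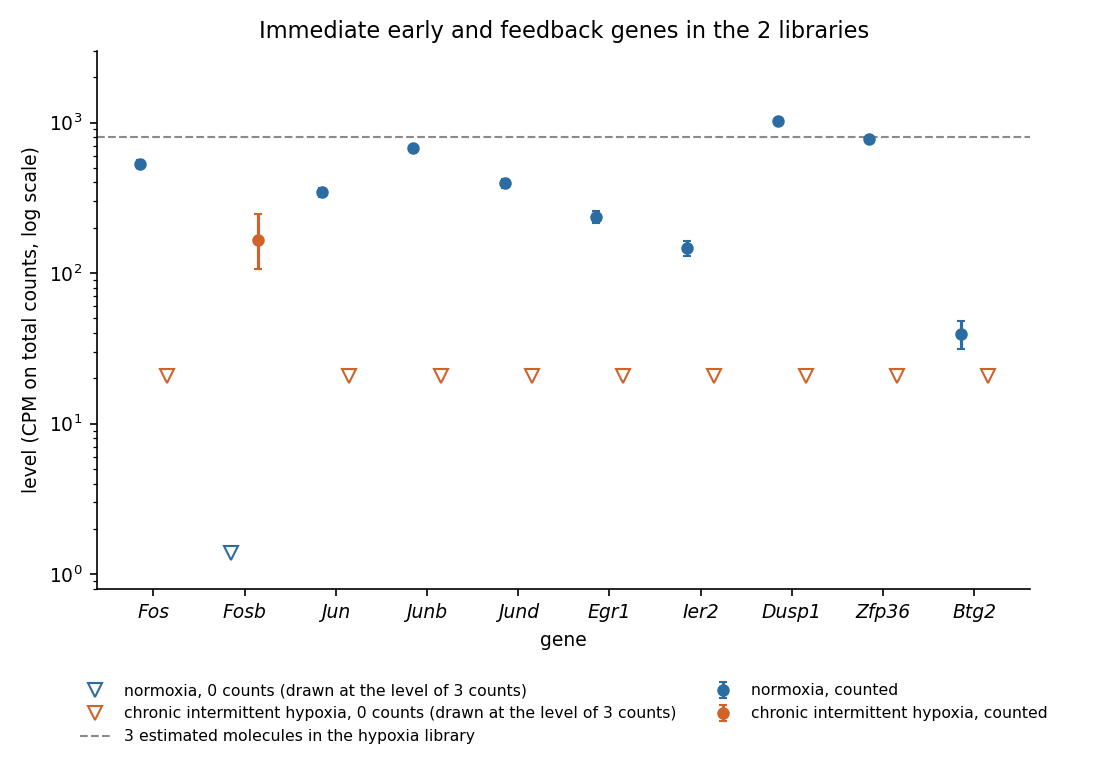
Level of each gene in CPM on total counts (log axis) in the normoxia (blue) and chronic intermittent hypoxia (orange) libraries, with exact 95% Poisson intervals; open triangles are 0 counts drawn at the level of 3 counts, 1.38 and 20.7 CPM, and the dashed line is 807 CPM, 3 estimated molecules in hypoxia. Fosb is the only gene with counts in hypoxia, and Dusp1 is the only gene above the dashed line in normoxia.

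Levels of different genes can be compared only per length, for which the authors' TPM values (counts divided by gene length and set to the same total in each library) were used. In normoxia Dusp1 stood highest at 693 TPM (counting interval 664.4 to 722.4), followed by Junb at 536 TPM (509.0 to 564.3). Jund at 434 TPM, Fos at 412 TPM and Zfp36 at 411 TPM came next, and neighbours among these had overlapping intervals. Jun at 197 TPM and Ier2 at 175 TPM also overlapped, and Egr1 at 96.4 TPM and Btg2 at 26.1 TPM were each apart from their neighbours on reads. On estimated molecules, from 9.69 for Dusp1 to 0.371 for Btg2, the intervals overlapped in 8 of the 8 pairs of neighbours, so this order rests on reads. The Jun family summed to 1168 TPM in normoxia and the Fos family to 412 TPM, a ratio of 2.83. In hypoxia Fosb held 37.2 TPM (23.8 to 55.4) and no Jun family partner was counted, where 3 counts of Jun would be 9.11 TPM, of Junb 12.6 TPM and of Jund 17.4 TPM.

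**Figure D2:**
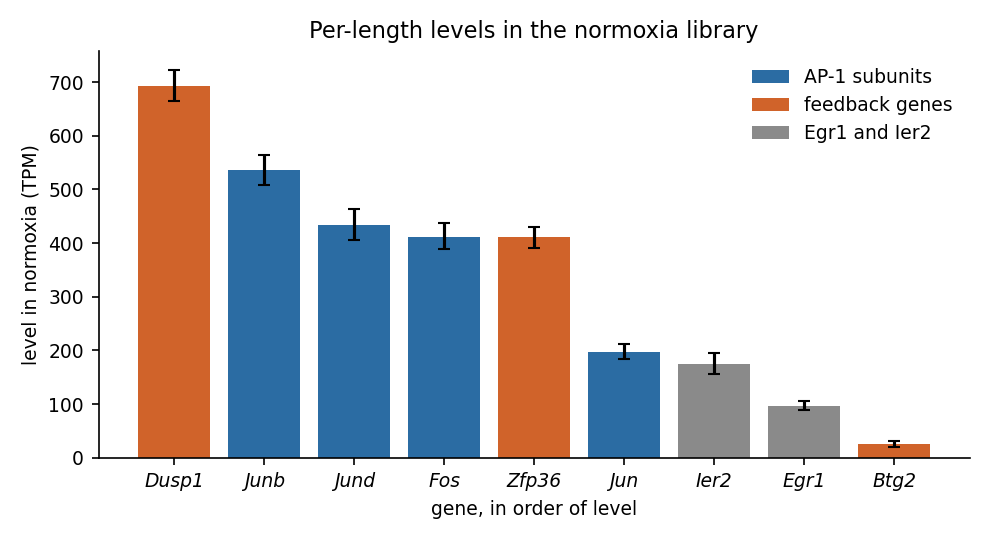
Per-length level (TPM) in the normoxia library of the 9 genes counted there, in falling order, with 95% counting intervals; AP-1 subunits are blue, feedback genes orange, and Egr1 and Ier2 grey. Dusp1 is highest at 693 TPM, and Jund, Fos and Zfp36 lie between 411 and 434 TPM with overlapping intervals.

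A gene was said to be lower when it had at least 50 counts over both libraries, a ratio of hypoxia over normoxia on total counts of 0.5 or less, and an exact conditional binomial interval that excluded 1, and higher in the mirror case at 2-fold. By this size rule all 9 genes that had the counts, Fosb being left out for too few, were lower in hypoxia and 0 were higher. All 9 reached the minimum through normoxia counts alone and had 0 in hypoxia, so none could have been called higher. With no minimum count 9 of the 10 were lower and Fosb was higher, against 54.45% of all genes lower. A minimum in counts is also easier to reach in the deeper normoxia library, for all genes alike. Of all 4215 genes with the counts, 3012 (71.5%) were lower and 679 (16.1%) were higher, so most genes of the normoxia library gave the same call. The median log2 ratio of the 9 genes was −6.84 with a prior count of 0.5, against −4.45 over all genes with the counts. With each 0 taken as 3 counts the medians were −4.26 and −1.95. As the 9 genes all had 0 counts in hypoxia, their log2 ratios follow from their normoxia counts and the value put for 0. Their lower median therefore reflects their abundance in normoxia and does not measure a larger change. On estimated molecules 0 of the 9 genes kept an interval below 1 (0.380% of all genes did).

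The share of all genes with 0 counts in hypoxia depended on their abundance in normoxia, and the group spans most of that range. Btg2 was among genes with 1 to 99 counts in normoxia, of which 86.6% had 0 counts in hypoxia. Ier2 was among those with at least 250 and under 500 counts, of which 78.4% did. Jun, Jund and Egr1 lay between 500 and 1000 counts, where 360 of 608 genes (59.2%) had 0. Fos, Junb and Zfp36 lay between 1000 and 2000 counts, where 102 of 250 genes (40.8%) had 0. Dusp1 was among the 80 genes from 2000 to under 4000 counts, of which 11 (13.8%) had 0. For Btg2, Ier2, Jun, Jund and Egr1 a 0 was thus the more usual outcome at their abundance. For Fos, Junb, Zfp36 and Dusp1 a 0 was the less usual one. Of the 103 genes with at least as many counts as Dusp1 in normoxia, 94 were counted in hypoxia and 9 were not. In order of normoxia counts, the genes at 0 in hypoxia were the erythrocyte band 3 gene Slc4a1 (4373), mt-Nd5 (3430), Fam46c (2992), Plbd1 (2735), Rpl12 (2567), the spectrin gene Sptb (2456), the monocyte chemokine receptor gene Ccr2 (2308), the histone gene H3f3a (2273), Dusp1 (2218) and Tmbim6 (2212).

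**Figure D3:**
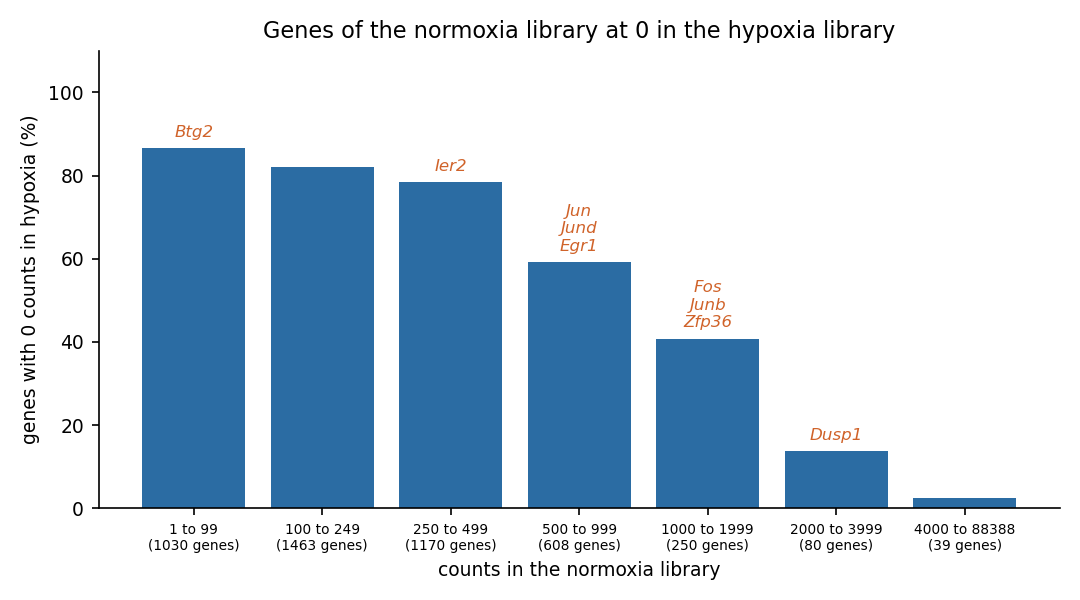
Share of genes with 0 counts in the hypoxia library (bars, %), by their counts in the normoxia library; the number of genes is under each bar, and the 9 group members counted in normoxia are named above the bar of their range. The share falls from 86.6% at 1 to 99 counts to 13.8% from 2000 to under 4000 counts, the range of Dusp1.

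Summed over the 10 genes, normoxia gave 9047 counts, 0.417% of the library (0.408 to 0.425), while hypoxia gave 24. The ratio of the shares came to 0.0397, its interval running from 0.0254 to 0.0591 on reads, with an upper limit of 0.333 on estimated molecules. At an equal share 604 counts or 15.5 estimated molecules would have stood in hypoxia, against 24 counts or 0.615 molecules. So the sum, unlike any single gene, stayed below 1 when read on estimated molecules. Summing genes with 0 counts in hypoxia lowers this limit by construction. Other genes of like abundance were not summed for comparison, so whether the group differs from them was not tested. Dusp1 held 24.5% of the group's normoxia counts, and without it the ratio was 0.0526 (0.0337 to 0.0783). Without Fosb it was 0, with an upper limit of 0.00610 on reads and 0.249 on estimated molecules. The upper limit on estimated molecules stayed below 1 under all 6 scalings, from 0.191 with TMM to 0.459 with housekeeping genes other than Actb.

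**Figure D4:**
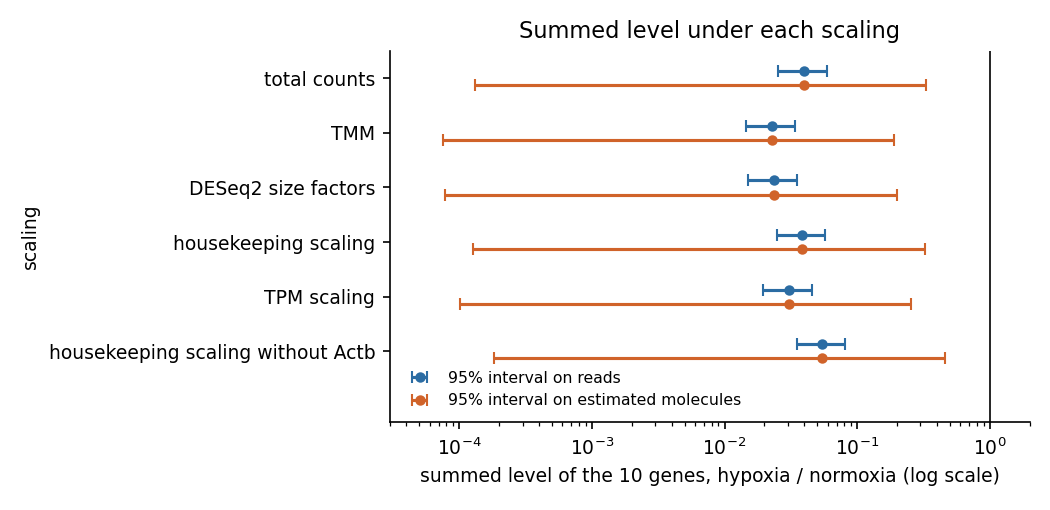
Ratio of the summed level of the 10 genes, hypoxia over normoxia (log axis), under 6 scalings of the libraries, with 95% intervals on reads (blue) and on estimated molecules (orange); the vertical line marks 1. The ratio runs from 0.0227 with TMM to 0.0547 with housekeeping genes other than Actb, and no interval reaches 1.

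The rest of the pathway was described with 9 lists of related genes, holding 122 distinct genes. Of these, 41 were counted in normoxia, and 36 of the 41 (87.8%) had 0 counts in hypoxia, against 75.0% of all genes. Of the 37 with the counts for the size rule, 32 (86.5%) were lower in hypoxia, 1 was higher and 4 were neither, against 71.5% of all genes lower. These shares describe the lists, which were not tested.

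Among the other AP-1 and related bZIP factors, 4 of 15 were counted in normoxia and 0 in hypoxia. They were led by Maf, a factor of mature macrophages, at 480 counts in normoxia, and by its small partner Mafk at 387, while Fosl1, Fosl2, Batf and Atf3 had 0 counts in both libraries. Of 14 other early transcription factors, 6 were counted in normoxia alone, among them Klf6 (766 counts), the nuclear receptor gene Nr4a1 (539) and Klf10 (314), and Nr4a3 alone was counted in hypoxia alone, with 3 counts. Of the other early response genes, the exceptions were the stress phosphatase subunit gene Ppp1r15a and the survival gene Mcl1. For Ppp1r15a 523 counts stood in normoxia and 45 in hypoxia, giving a ratio of 1.29 (0.928 to 1.75), and for Mcl1 1227 and 64, giving 0.781 (0.598 to 1.00). Neither met the size rule in either direction, whereas Sgk1 (277), Ier5 (223), Ier3 (203) and Gadd45b (118) had 0 there. The heat shock gene Hspa1a (336 and 0) has a near-identical copy and its value is uncertain.

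The phosphatase, Sprouty and Spred list held genes of the opposite pattern to Dusp1. Of 13 genes, 3 were counted in hypoxia alone, 1 in normoxia alone and 9 in neither. Over all genes, 892 of the 2050 counted in hypoxia (43.5%) had 0 counts in normoxia. Dusp6, a phosphatase that switches off MAP kinases, had no count in normoxia against 51 in hypoxia, with an interval of its ratio on reads from 199.6. The related Dusp7 and the Ras pathway inhibitor gene Spred1 had 0 and 20 counts each, with an interval from 73.9. Dusp16, which acts on JNK, had 345 and 0. On estimated molecules Dusp6 came to 1.31 and Dusp7 and Spred1 to 0.513 each in hypoxia, against 0.615 for Fosb. Among mRNA decay and BTG genes, Btg1, the abundant relative of Btg2, had 1540 counts in normoxia and 0 in hypoxia, at least 34.3-fold lower, and the deadenylase scaffold gene Cnot1 had 388 and 21, or 0.810 as a ratio (0.496 to 1.26). Of the Zfp36 relatives, Zfp36l2 gave 115 counts and Zfp36l1 gave 2, both in normoxia alone.

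Upstream of the group, 6 of 20 MAP kinase cascade genes were counted in normoxia and 2 in hypoxia. Among them, the p38 target kinase gene Mapkapk2 had 573 and 0, and Map2k3 had 279 and 23, or 1.23 as a ratio (0.769 to 1.89). The MEF2 factor genes Mef2a and Mef2d had 536 counts each in normoxia and 0 in hypoxia, and Srf, Elk1 and Creb1 had 0 in both libraries. Of 12 mRNAs known to be bound by Zfp36, 9 had 0 counts in both libraries. Pim1 (611), Tnf (334) and Ier3 (203) were counted in normoxia and had 0 in hypoxia, as Zfp36 did. In their ranges of normoxia counts 59.2%, 78.4% and 81.95% of all genes had 0 in hypoxia, so a 0 was the more usual outcome for each. The NF-kB inhibitor gene Nfkbia had 163 and 0 counts and Socs3 had 100 and 0.

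**Figure D5:**
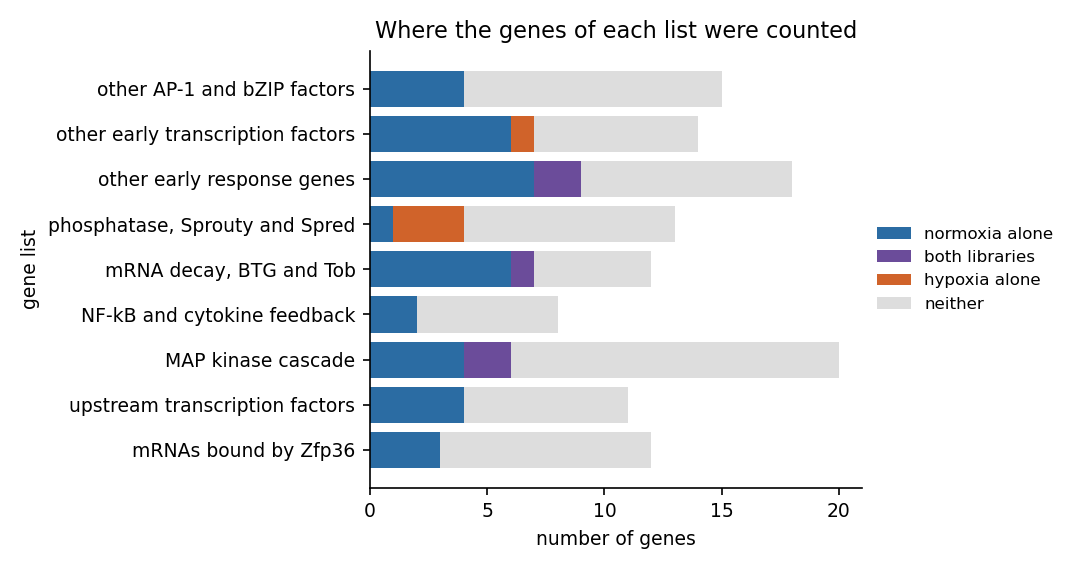
Number of genes of each related list that were counted in the normoxia library alone (blue), in both (purple), in the hypoxia library alone (orange) or in neither (grey). The phosphatase, Sprouty and Spred list is the one with more genes in hypoxia alone (3) than in normoxia alone (1).

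The genes of the group have few exons, with a median of 2 against 7 over all coding genes, while the median transcript length was 2426 bases against 2554. Jun, Junb, Jund and Ier2 have a single exon in the transcript used, 4 of 10, against 6.94% of coding genes and 2.25% of those counted in normoxia. Junb and Ier2 lie 311631 bases apart on chromosome 8. Among coding genes with 500 to under 4000 counts in normoxia, and with the group itself left out, 4 of 8 single-exon genes and 453 of 906 with several exons had 0 counts in hypoxia, 50.0% of each. Among the same genes, 111 of 182 with the heptamer TATTTAT (61.0%) had 0 counts in hypoxia, against 346 of 732 without it (47.3%). The 3′ UTRs with a heptamer were longer, with a median of 1768 bases against 578, and the part of length in this difference was not tested. The sets with and without a heptamer were not matched for normoxia counts. Over all genes in this range of counts, the share with 0 counts in hypoxia fell with abundance, from 59.2% through 40.8% to 13.8%. The part of abundance in the difference between the sets was therefore not tested either.

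Markers of cell types moved with the libraries. Of 12 macrophage markers, 11 were counted in normoxia and 2 in hypoxia, and the defining genes Adgre1, Cd68, Csf1r and C1qa were at 0 in hypoxia, so the hypoxia library does not show the labelled cell type by these markers. The list summed to 20585 CPM in normoxia and 21854 CPM in hypoxia, nearly all of the latter from Lyz2, which neutrophils also express. Of 12 neutrophil markers, 10 were counted in normoxia and 9 in hypoxia, with Mpo, Mmp8 and Mmp9 at 0 in hypoxia and Ly6g and Elane at 0 in normoxia, and the list summed to 18349 and 102953 CPM. Red cell genes summed to 98187 and 79252 CPM, Schwann and satellite glia genes to 144 and 1275 CPM, and T, NK and B cell genes to 281 and 0 CPM. That 281 CPM came from the B cell genes Cd79a (452 counts) and Cd79b (159) alone. The other 7 genes of the list, all its T and NK cell genes among them, had 0 counts in both libraries. Isl1, with 60 counts in hypoxia, was the single gene counted of 10 markers of sensory neurons. The part of these differences in the result for the early genes was not tested. In bulk RNA, fewer cells of a type and less RNA per cell cannot be told apart.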

How the data were processed

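RNA-seq was done on 1 library per group. The submitters' processing notes name STAR 2.5.2b, featureCounts, Subread 1.5.2 and bcl2fastq 2.20. Genome build, annotation, strand setting and duplicate removal: not given in the sources used here. Raw counts were analysed as deposited, and the TPM values of the authors were used to compare genes within a library.

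CPM used total counts, since TMM rests on the 1158 genes counted in both libraries, a selection that low depth shapes. Ratios carry exact conditional binomial intervals and shares exact Clopper-Pearson intervals, both at 95%. Alternatives were TMM (edgeR 4.0.16), size factors (DESeq2 1.42.0), housekeeping scaling, other minimum counts, folds and prior counts, and intervals on estimated molecules. TPM scaling, housekeeping scaling without Actb, and leaving out Fosb were added after the data were seen. The functions were tested on simulated data with independent Poisson counts for each gene. These leave out the many reads per molecule estimated above, so the coverage of the read intervals in the real libraries was not tested. Members, lists and tests were chosen with earlier results of these data known. Text names all 10 members, counted genes of the lists, and the 10 genes with most normoxia counts at 0 in hypoxia. Other genes at 0 in both libraries were named after their values were seen. Motifs were searched with Python 3.11.15. A gene of the MAP kinase list is not reported here.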

Additional observations from a re-analysis of the deposited data

How the results depend on the processing

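The summed ratio of 0.0397 kept its direction under every scaling and member choice tried, none of which could have turned it. The scalings multiplied it by 0.573 (TMM) to 1.38 (housekeeping without Actb). The gene left out was Fosb, the only one counted in hypoxia, or Dusp1, which had 0 there. The ratio moved beyond its read interval with TMM (0.0227), with DESeq2 size factors (0.0236) and without Fosb (0). The count of 9 lower genes was the same under all scalings, with a 4-fold rule and with no minimum count. Each of the 9 genes had a ratio of 0, so a larger fold in the rule could not change their calls. Btg2 was thus called under the 4-fold rule although the interval of its ratio reached 0.664. The count was 8 with at least 200 counts and fell to 0 with intervals on estimated molecules. That last setting rests on the assumed number of reads per molecule in both libraries. The median log2 ratio of −6.84 was −4.26 with each 0 at 3 counts, by construction. A scaling moves all genes alike and cannot change which of them stood at 0, so the direction of single genes was not put to the test by it. Relative to total counts, TMM moved every log2 ratio by −0.80, DESeq2 by −0.75, TPM scaling by −0.38, housekeeping scaling by −0.04 and housekeeping scaling without Actb by 0.46. No paired analysis was possible because there was 1 library per group, and for the same reason no library could be left out.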
